A study of Mus musculus with 56 samples.

Results

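The step from multipotent progenitors (MPP) to granulocyte-macrophage progenitors (GMP) was examined in mutant mouse bone marrow, as the difference GMP minus MPP in RNA-seq libraries of the genotype Tet2-/-Flt3ITD, called T2F3 here. The libraries were chosen by genotype and population alone: 3 T2F3 GMP and 3 T2F3 MPP libraries, 6 of the 15 RNA libraries and of the 56 samples of the series. Genes were tested where their mean over these 6 libraries was at least 4 on the log2 scale of the deposited values, which kept 12105 of the 24424 genes of the table. The other RNA libraries, 4 of MPP and 5 of GMP from WT mice, served to ask whether a step in T2F3 differed from that in WT.

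All mice were of the C57BL/6 strain. The T2F3 mice carried a Tet2 deficiency, which removes an enzyme that oxidizes 5-methylcytosine in DNA, together with an internal tandem duplication in Flt3, a receptor tyrosine kinase of early blood progenitors. The WT mice are labelled with no mutant allele. Sorted MPP were lineage-negative cells with Sca-1, c-Kit and CD48 and without CD150, and sorted GMP were lineage-negative cells with c-Kit, CD34 and CD16/32 and without Sca-1. Age, treatment and the way in which Tet2 was deleted are not given in the sources used here. Nothing in the labels says that the libraries came from separate animals, so each p-value below measures the spread between these libraries, which may be technical in part. Y-linked genes were high in some libraries of each group and low in others (below), so no group came from a single animal. Whether every library came from its own animal is not known. In such bulk samples, fewer cells of a type and less RNA per cell cannot be told apart.

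Multipotent progenitors can still form all blood lineages, and they hold transcripts of stem cell and lymphoid genes at the same time. Granulocyte-macrophage progenitors are committed to neutrophils, monocytes and related cells, and they make the proteases and the peroxidase of the primary granules, before the secondary granule proteins of maturing neutrophils appear. FLT3 is used by multipotent progenitors and is normally lost on the way to the granulocytic fate, and its internal tandem duplication signals without ligand, in part through STAT5.

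A broad change separated the T2F3 populations. Of the 12105 genes tested, 2719 passed an adjusted p of 0.05 in limma, or 22.5%. In GMP 1280 genes were higher (10.6% of those tested) and 1439 were lower (11.9%). More than 2-fold changes were seen in 342 of the genes that rose and 400 of those that fell, and changes above 8-fold in 11 and 14. The median step over all genes was 0.01 on the log2 scale, with a median SE of 0.14. In 4071 genes (33.6%) the 3 GMP and the 3 MPP libraries did not overlap, with GMP above in 16.2% of the genes tested and below in 17.5%.

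In WT, with more libraries and a median SE of 0.11, 5856 genes passed (48.4%), of which 3078 were higher in GMP (25.4%) and 2778 lower (22.9%). The genes called in both genotypes numbered 2300. Of these 1045 were higher in both and 1233 lower in both, while 22 had opposite directions. Calls shared in direction made up 83.8% of the T2F3 calls and 38.9% of the WT calls. The counts of the 2 genotypes rest on unequal numbers of libraries, so the lower count in T2F3 is no measure of a smaller step. Among the T2F3 calls, 1317 had the larger step in WT, 1307 had the larger step in T2F3 and 95 had the other sign in WT. These genes were picked by their T2F3 step, so this split does not compare the sizes of the steps. The median absolute step over all genes tested was 0.18 in T2F3 and 0.28 in WT. Over all tested genes the steps had a Pearson r of 0.807 and a Spearman rho of 0.708, given as a description, since genes are no independent replicates. The test of the difference itself passed for 242 genes (2.00%), 138 with a higher step in T2F3 (1.14%) and 104 with a lower one (0.859%).

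The libraries of a group were alike but not equal. The first principal component of the 6 T2F3 libraries held 66.6% of the variance and parted MPP from GMP, and the second, with 16.1%, spread the GMP libraries, from -18.0 for GMP 3 and -10.3 for GMP 1 to 27.0 for GMP 2. The lowest correlation of a T2F3 library with another of its group was 0.978. Genes of cytosolic ribosomal proteins lay at a median of 0.84 in GMP 2 from the mean of the other T2F3 GMP libraries. In GMP 3 this median was -0.64, and the part of these genes in the results was not tested. Ddx3y, a Y-linked gene, was read at 7.83 in MPP 1 and 7.75 in GMP 1 and between 2.99 and 3.15 in the other T2F3 libraries, so each T2F3 group held 1 such library. In WT it was read at 7.74 in MPP 3 and 7.68 in GMP 3 and between 2.99 and 3.31 in the other libraries, so in both genotypes the libraries with Y-linked reads carried the same number in MPP and GMP.

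The targeted genes were read first. Tet2 stood at 9.67, 9.90 and 9.67 in the T2F3 MPP libraries and at 9.88, 10.30 and 10.17 in GMP. The groups overlapped, the step was 0.37 ± 0.12 (SE, adjusted p = 0.0271), and the WT step was 0.28 ± 0.09. Without T2F3 MPP 1, MPP 3, GMP 2 or GMP 3 the Tet2 call was lost, with adjusted p values of 0.0928, 0.0998, 0.11 and 0.0775. Such values sum the whole transcript, so they cannot show whether some of the exons were removed, and they do not test the genotype label.

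Flt3 was read at 11.21, 11.34 and 11.40 in T2F3 MPP and at 9.87, 9.93 and 10.47 in T2F3 GMP. The groups did not overlap, and GMP 3 lay highest among the GMP libraries. Flt3 fell 2.34-fold on the step (-1.23 ± 0.13, SE, adjusted p = 2.72e-06). In WT it fell from 11.38 ± 0.10 (SD, n = 4) to 8.81 ± 0.07 (SD, n = 5), a step of -2.57 ± 0.11. The steps differed by 1.34 ± 0.17 (SE, adjusted p = 0.00043), so that less of the Flt3 transcript was lost between these populations in T2F3 than in WT.

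Of the genes behind the sorting gates, those of CD16/32 and Sca-1 moved in the direction of the gates and Cd34 did not. Fcgr3 and Fcgr2b, which encode the CD16/32 receptors, were higher in T2F3 GMP by 1.88 ± 0.21 and 0.85 ± 0.12 (log2 difference ± SE). Ly6a, the gene of Sca-1, was lower by -0.72 ± 0.12. Both directions follow from the sort and are no finding. Cd34, which the MPP gate did not use, was lower in GMP, at 11.58, 11.10 and 11.58 against 12.54, 12.25 and 12.54 in MPP (-1.02 ± 0.14, adjusted p = 3.18e-05). Kit, used for both gates, did not pass: it was read at 11.45, 11.27 and 11.41 in MPP and at 11.41, 10.98 and 11.48 in GMP (-0.09 ± 0.15, adjusted p = 0.768), against a WT step of -0.78 ± 0.13 and with an adjusted p of 0.0823 for the difference of the steps. Cd48 was lower in T2F3 GMP (-0.69 ± 0.19, adjusted p = 0.0117), a call lost without GMP 1 (0.0508) or GMP 3 (0.057).

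Primary granule genes rose. Of the 17 genes of the list in the table, 16 passed the filter, 13 were higher in T2F3 GMP and none was lower, with a median step of 1.15 against 0.01 over all genes tested. Mpo, which encodes myeloperoxidase, was read at 15.02, 15.04 and 15.36 in MPP and at 17.38, 16.37 and 17.11 in GMP. All 3 GMP libraries lay above all MPP libraries, and Mpo rose 3.52-fold (1.81 ± 0.24, SE, adjusted p = 3.41e-05). Elane, the gene of neutrophil elastase, was at 13.29, 13.24 and 13.39 in MPP and at 15.80, 15.54 and 15.22 in GMP. It rose 4.65-fold (2.22 ± 0.17, adjusted p = 1.13e-07), again with no overlap. Hp, for the haemoglobin-binding protein haptoglobin, rose 4.63-fold (2.21 ± 0.16) and Ms4a3, a membrane protein gene known from this stage, 4.02-fold (2.01 ± 0.23).

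The WT steps of these genes lay close: 1.86 for Mpo, 2.27 for Elane, 2.35 for Hp and 2.19 for Ms4a3. No primary granule gene passed the test of the difference, and its SE was 0.31 for Mpo and 0.22 for Elane, so differences of that order were not resolved. Plac8, Fut7 and Ctsc were the tested members that did not pass in T2F3, named after their values were seen. Their steps were 0.91, -0.11 and -0.12. In the WT step 15 members were higher and the median was 1.48.

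Late neutrophil genes gave the largest rises of the whole step. Of 20 genes in the table, 18 were tested, 16 were higher in T2F3 GMP and none was lower, with a median step of 2.63. S100a9, which encodes a subunit of the calcium-binding protein calprotectin, was at 12.32, 13.32 and 12.16 in MPP and at 16.04, 17.47 and 14.85 in GMP. It rose 11.5-fold (3.52 ± 0.56, SE, adjusted p = 0.00019). Its partner S100a8 was at 11.95, 12.92 and 11.82 in MPP and at 15.52, 17.16 and 14.42 in GMP. It rose 11.1-fold (3.47 ± 0.59, adjusted p = 0.000337). In both genes GMP 2 was highest and GMP 3 lowest of the GMP libraries, MPP 2 was highest of the MPP libraries, and the groups did not overlap.

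Secondary granule genes followed. Camp, for the antimicrobial peptide cathelicidin, was at 10.27, 11.29 and 10.14 in MPP and at 14.01, 15.26 and 12.78 in GMP (3.45 ± 0.65, SE). Ngp, which encodes neutrophilic granule protein, was at 10.76, 11.84 and 10.77 in MPP and at 15.02, 14.35 and 14.28 in GMP (3.43 ± 0.42). Ltf, the lactoferrin gene, was at 9.72, 10.84 and 9.75 in MPP and at 13.80, 13.07 and 13.12 in GMP (3.23 ± 0.46). In these genes too MPP 2 stood above MPP 1 and MPP 3, while the highest GMP library was GMP 2 for Camp and GMP 1 for Ngp and Ltf.

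Further genes of this group were among the 12 largest rises. Lcn2, a lipocalin gene of the secondary granules, rose 9.18-fold, and Cd177, a neutrophil surface protein gene, rose 8.84-fold. Chil3, for a chitinase-like protein, rose 9.82-fold and Chil4 9.73-fold, but these genes are near-identical copies and their reads may not be well parted. Itgb2l, which encodes an integrin beta chain, rose 9.42-fold from values between 6.14 and 7.25 to values between 9.40 and 10.13. Wfdc21 rose 8.84-fold and Lypd11 7.63-fold. All 12 had adjusted p values of at most 0.000847 in limma.

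The late neutrophil list had a summed level, the log2 of the sum of its genes on the linear scale, between 14.04 and 15.04 in T2F3 MPP and between 16.75 and 18.74 in T2F3 GMP. In WT it lay between 14.00 and 14.53 in MPP and between 15.80 and 17.51 in GMP. No defining marker of the list was listed at 0, and the part of maturing neutrophils or of their free RNA in these values was not tested. In WT 14 members were higher and 1 was lower, with a median of 2.01. The largest T2F3 steps of the list lay above their WT counterparts (2.81 for S100a9 and 2.21 for Ltf), but the differences had SE of 0.73 and 0.60 and did not pass. The test of the difference passed for Cxcr2, a chemokine receptor gene of neutrophils named after its value was seen, with a step of 1.42 in T2F3 and 0.52 in WT (difference 0.90 ± 0.20, SE, adjusted p = 0.0333). That call was lost without T2F3 MPP 3 (0.114), T2F3 GMP 1, T2F3 GMP 3, WT MPP 1, WT MPP 4, WT MPP 5, WT GMP 2, WT GMP 3 or WT GMP 5.

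**Figure D1:**
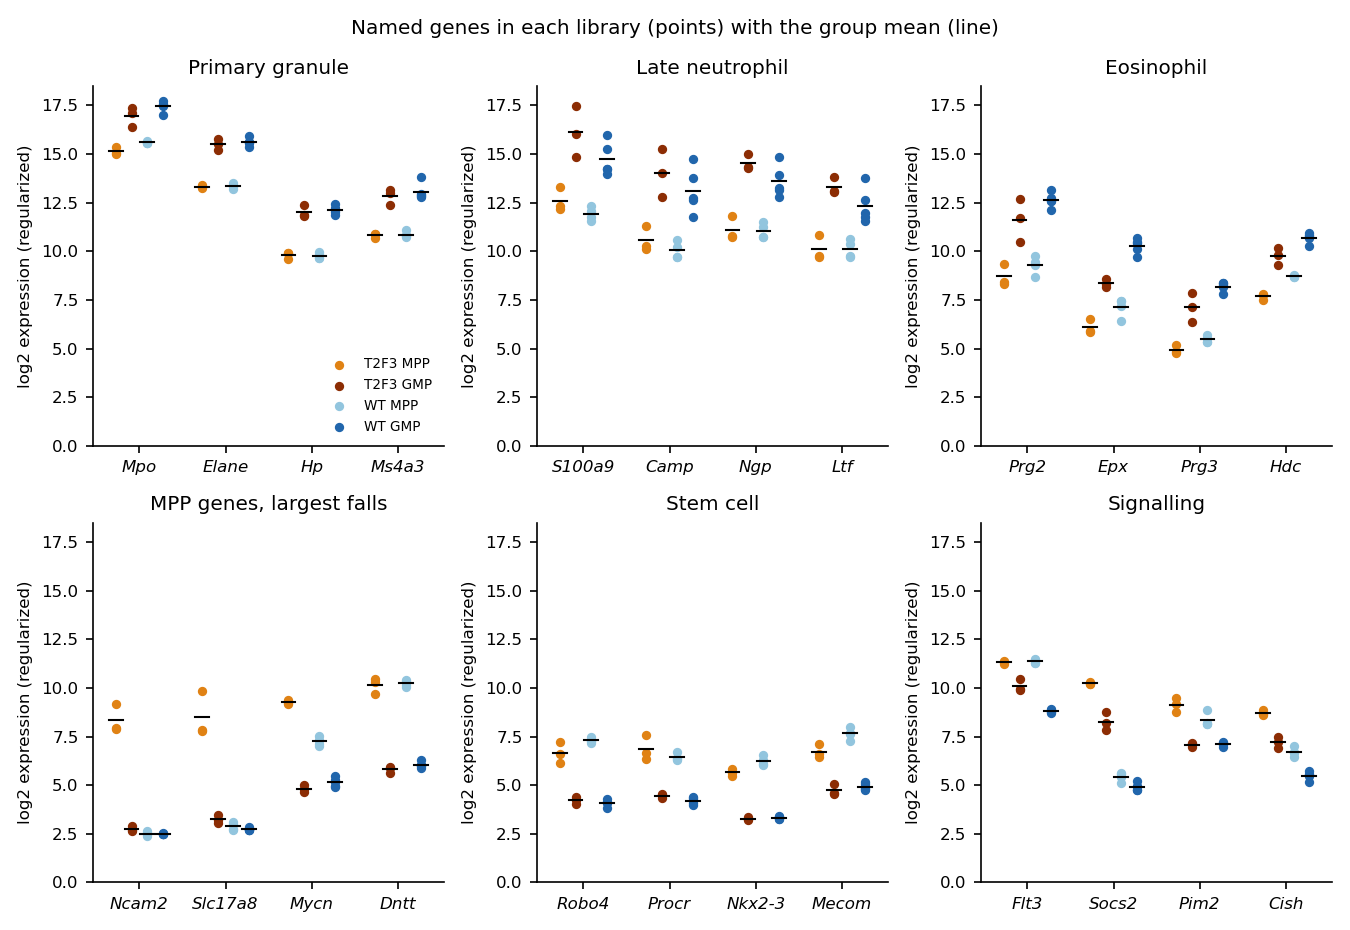
Regularized log2 expression (vertical axes) of named genes in each RNA library (points) with the group mean (black line), for T2F3 MPP (3 libraries), T2F3 GMP (3), WT MPP (4) and WT GMP (5). Mpo and S100a9 lay higher in every GMP library of T2F3 than in any MPP library, Ncam2 and Slc17a8 were high in T2F3 MPP alone, and Flt3 fell less in T2F3 than in WT.

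The promoters of Mpo, Elane, S100a9 and S100a8 are shown as examples of granule and calprotectin genes that rose together, and those of Mycn and Dntt because they are among the deepest falls. Each line gives the 250 bases before the RefSeq start of the gene in GRCm38.p6, 5′ to 3′ on the gene's strand, credited to RefSeq. Capitals mark matches, on either strand, to the core letters GAGGAA for ETS factors such as PU.1, TTGCNNAA for C/EBP factors and TGTGGT for RUNX factors, which do not overlap each other in these windows. The Mpo window is chr11:87793534-87793783 (plus strand), that of Elane chr10:79886062-79886311 (plus), that of S100a9 chr3:90695722-90695971 (minus) and that of S100a8 chr3:90668821-90669070 (plus). The Mycn window is chr12:12941837-12942086 (minus) and that of Dntt chr19:41029025-41029274 (plus).
Mpo: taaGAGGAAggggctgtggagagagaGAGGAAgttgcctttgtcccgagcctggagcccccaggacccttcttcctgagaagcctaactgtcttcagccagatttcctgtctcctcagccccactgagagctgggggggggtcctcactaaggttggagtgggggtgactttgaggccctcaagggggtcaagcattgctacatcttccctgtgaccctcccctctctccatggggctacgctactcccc
Elane: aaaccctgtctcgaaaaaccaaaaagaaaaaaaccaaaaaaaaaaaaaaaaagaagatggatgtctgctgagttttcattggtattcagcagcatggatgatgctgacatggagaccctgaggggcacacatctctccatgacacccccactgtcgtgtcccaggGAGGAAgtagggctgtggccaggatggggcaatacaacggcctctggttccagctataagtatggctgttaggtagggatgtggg
S100a9: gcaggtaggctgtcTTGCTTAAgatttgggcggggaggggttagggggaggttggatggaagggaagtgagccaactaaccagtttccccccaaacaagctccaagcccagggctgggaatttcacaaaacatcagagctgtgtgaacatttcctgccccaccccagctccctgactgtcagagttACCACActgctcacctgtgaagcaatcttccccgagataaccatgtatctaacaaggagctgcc
S100a8: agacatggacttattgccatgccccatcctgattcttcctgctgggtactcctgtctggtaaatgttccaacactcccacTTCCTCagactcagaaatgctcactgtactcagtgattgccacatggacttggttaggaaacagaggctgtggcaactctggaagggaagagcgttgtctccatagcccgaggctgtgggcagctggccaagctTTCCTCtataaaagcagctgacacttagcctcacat
Mycn: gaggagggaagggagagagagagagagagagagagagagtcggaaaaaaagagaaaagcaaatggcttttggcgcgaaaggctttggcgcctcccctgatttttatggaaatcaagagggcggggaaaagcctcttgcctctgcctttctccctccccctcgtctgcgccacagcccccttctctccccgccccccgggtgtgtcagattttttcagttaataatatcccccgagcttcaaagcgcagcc
Dntt: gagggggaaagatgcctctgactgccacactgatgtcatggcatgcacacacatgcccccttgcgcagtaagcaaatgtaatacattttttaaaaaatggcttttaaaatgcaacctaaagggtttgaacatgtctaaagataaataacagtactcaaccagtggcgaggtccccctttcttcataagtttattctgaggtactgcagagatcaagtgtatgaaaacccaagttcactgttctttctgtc

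The Mpo window held 2 matches to the ETS letters, with their first bases 247 and 224 bases before the start. The Elane window held 1, at 85 bases, and S100a8 held 2, at 170 and 36 bases. S100a9 held 1 match to the C/EBP letters, at 236 bases, and 1 to the RUNX letters, at 64 bases, while the windows of Mycn and Dntt held none of the 3 motifs. The ETS letters were found in 6 of the 10 primary granule genes that rose and had a promoter in the table, and in 10 of 14 late neutrophil genes. Among all genes of the promoter table the share was 23.1%, and among tested genes with a promoter, 9692 in number, it was 22.8%. The C/EBP letters were found in 1 of 10 and 6 of 14, against 7.58% of tested genes, and the RUNX letters in 3 of 10 and 1 of 14, against 11.1%.

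Over the whole step the ETS and RUNX shares were near those of all tested genes. The ETS letters stood in 23.7% of the promoters of genes that rose and 23.9% of those of genes that fell. The RUNX letters stood in 11.5% and 11.9%. The C/EBP letters stood in 10.8% of the promoters of genes that rose, above the 7.58% of tested genes, and in 7.19% of those of genes that fell, a difference that was not tested. These matches are a description of the letters in a short window.

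Eosinophil genes also rose, and basophil and mast cell genes rose in part. Of 19 genes of the basophil, mast cell and eosinophil list in the table, 14 were tested, 9 were higher in T2F3 GMP and 1 was lower, with a median step of 1.20. Prg2, which encodes eosinophil major basic protein, was at 8.44, 9.37 and 8.32 in MPP and at 11.73, 12.69 and 10.47 in GMP, and rose 7.58-fold (2.92 ± 0.43, SE, adjusted p = 8.15e-05). Epx, for eosinophil peroxidase, was at 5.92, 6.51 and 5.87 in MPP and at 8.33, 8.59 and 8.19 in GMP, and rose 4.81-fold (2.27 ± 0.27, adjusted p = 9.18e-06). The related Prg3 rose 4.55-fold (2.19 ± 0.27). No library of GMP overlapped with one of MPP in these genes.

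Hdc, the histidine decarboxylase gene of histamine synthesis, rose 4.18-fold, with 7.50, 7.79 and 7.76 in MPP and 10.16, 9.30 and 9.79 in GMP. Gata2, a transcription factor gene of stem, mast and basophil cells, was the member that fell (-0.74 ± 0.19, adjusted p = 0.00925), a call lost without MPP 1, where the step was -0.49 (adjusted p = 0.0553). In WT 12 members were higher and 1 lower, and the median was 2.15. Mcpt8 and Ear2, a basophil protease and an eosinophil ribonuclease gene named after their values were seen, passed the test of the difference. Mcpt8 had a T2F3 step of 0.38 (adjusted p = 0.33) against 2.27 in WT (difference -1.89 ± 0.33, SE, adjusted p = 0.00683). Ear2 had steps of 0.40 and 1.88 (difference -1.48 ± 0.37, adjusted p = 0.0498), a call that held without T2F3 MPP 1, T2F3 GMP 2 or WT GMP 3 and was lost without any other single library (up to 0.131). It belongs to a family of close copies, so its value is uncertain.

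The summed level of this list lay between 10.84 and 11.21 in T2F3 MPP and between 11.98 and 13.32 in T2F3 GMP, with GMP 3 lowest. In WT GMP it lay between 13.70 and 14.14. Mcpt4 of the list was listed at 0, and Gzmb, Cma1, Tpsb2 and Il5ra were below the filter.

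Monocyte and phagocyte genes rose in part. Of 24 monocyte and macrophage genes in the table, 23 were tested, 14 were higher and none lower, with a median of 0.66. Ly6c2, for a surface protein of inflammatory monocytes, was at 11.45, 11.88 and 11.79 in MPP and at 14.02, 13.83 and 13.70 in GMP, and rose 4.41-fold (2.14 ± 0.15, SE, adjusted p = 4.39e-08). Its near-identical neighbour Ly6c1 rose 4.32-fold, and the reads of these copies may be shared. F13a1, for the A chain of coagulation factor XIII, rose 3.1-fold (1.63 ± 0.19). Csf1r, the receptor of macrophage colony-stimulating factor, rose 2.35-fold from 8.96, 9.61 and 9.44 to 10.52, 10.27 and 10.92, with no overlap.

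Of 20 tested genes for the phagocyte oxidase, Fc receptors and related functions, 15 were higher and none lower, with a median of 1.02. Cybb, the membrane subunit of the phagocyte NADPH oxidase, was at 9.72, 10.76 and 10.06 in MPP and at 12.47, 11.86 and 12.12 in GMP, and rose 3.91-fold (1.97 ± 0.27, adjusted p = 4.98e-05). Alox5, the 5-lipoxygenase gene of leukotriene synthesis, rose 4.14-fold (2.05 ± 0.19). Itgam, the CD11b chain, rose 3.62-fold (1.86 ± 0.23) against a WT step of 0.87, but the difference did not pass (adjusted p = 0.102). The median WT steps were 1.08 for the monocyte list and 1.37 for the phagocyte list, and no member of either list passed the test of the difference.

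Dendritic cell and MHC class II genes fell. Of 21 genes, all tested, 14 were lower in T2F3 GMP and none higher, with a median of -0.74. Xcr1, a chemokine receptor of cross-presenting dendritic cells, was at 8.83, 9.41 and 9.51 in MPP and at 8.08, 7.94 and 8.15 in GMP, and fell 2.28-fold (-1.19 ± 0.23, SE, adjusted p = 0.000849). Siglech, a lectin gene of plasmacytoid dendritic cells, was at 4.09, 5.62 and 5.20 in MPP, with MPP 1 lowest, and at 3.65, 3.77 and 3.69 in GMP (-1.27 ± 0.26). Zbtb46, a transcription factor gene of conventional dendritic cells, fell 1.83-fold (-0.87 ± 0.20).

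H2-Aa, for the MHC class II alpha chain, was at 13.17, 14.08 and 13.90 in MPP and at 12.70, 13.06 and 12.76 in GMP (-0.88 ± 0.24, adjusted p = 0.0144). Its call was lost without MPP 2, MPP 3 or GMP 1, with adjusted p values of 0.0762, 0.0628 and 0.0606. The list as a whole rested on the same libraries: 4 members passed without MPP 2 (1 of them higher), 3 without MPP 3 and 5 without GMP 1. The summed level was 15.91 to 16.69 in T2F3 MPP and 15.63 to 15.84 in T2F3 GMP, against 13.76 to 14.28 in WT MPP and 13.76 to 14.01 in WT GMP. In WT 15 members were lower and 3 higher, with a median of -0.96, and no member passed the test of the difference.

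**Figure D2:**
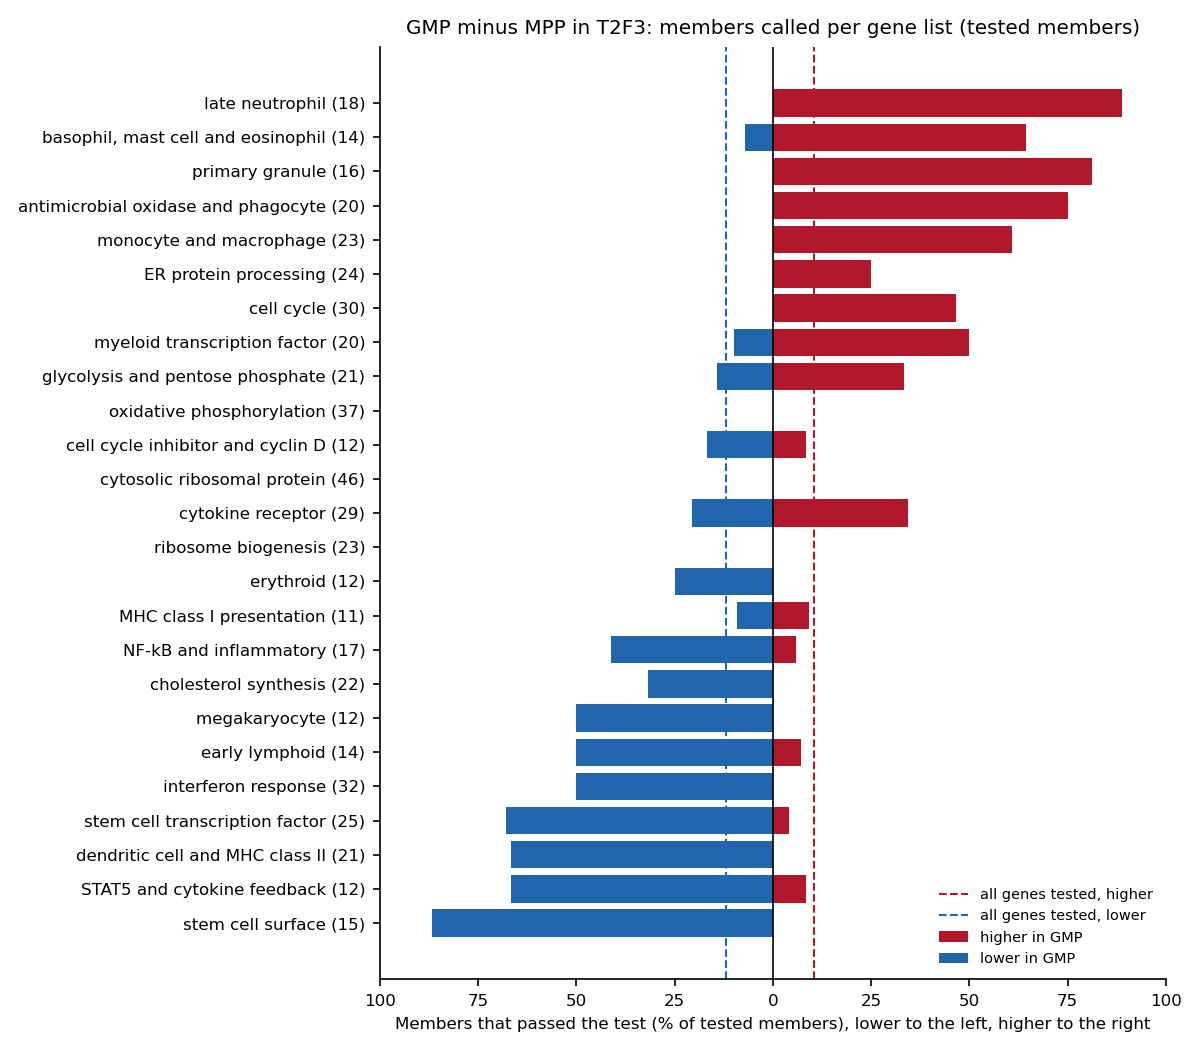
Share of the tested members of each gene list (horizontal axis, % of the members in brackets) that passed the test for GMP minus MPP in T2F3, higher to the right and lower to the left, for lists with at least 10 tested members, with the shares over all genes tested as dashed lines (10.6% higher, 11.9% lower). Late neutrophil, primary granule and phagocyte genes extend to the right, and stem cell surface genes, of which 13 of 15 were lower, extend farthest to the left.

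Transcription factors of the myeloid lineages rose in part. Of 21 genes in the table, 20 were tested, 10 were higher and 2 lower, with a median of 0.28. Cebpe, the factor of secondary granule genes, was at 7.74, 7.68 and 7.71 in MPP and at 10.57, 10.48 and 9.75 in GMP, and rose 5.88-fold (2.56 ± 0.18, SE, adjusted p = 5.55e-08). Cebpd, of the same family, rose 3.41-fold (1.77 ± 0.12). Gfi1, a repressor needed for neutrophil formation, rose 2.07-fold (1.05 ± 0.11) and Zeb2 2.12-fold (1.08 ± 0.18). Etv3, an ETS repressor, had the largest fall among the members that passed (-0.51 ± 0.14), and its call was lost without MPP 2 (adjusted p = 0.0561) or GMP 2 (0.0603).

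Irf8, the factor of the monocyte and dendritic lineages, named after its value was seen, had a step of 0.05 (adjusted p = 0.919). It was read at 12.03, 12.81 and 12.90 in MPP and at 12.57, 12.44 and 12.88 in GMP, so the groups overlapped. Without GMP 1, 8 members of the list passed, and without MPP 2 its median was 0.47. In WT the steps of Cebpe, Cebpd and Gfi1 were 2.36, 1.65 and 1.31.

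Cytokine receptors moved both ways, with 10 of 29 tested genes higher and 6 lower (30 in the table). Large falls were those of Il18r1 (-2.57 ± 0.21, SE) and Il1r1 (-1.93 ± 0.14), receptors of interleukin 18 and interleukin 1. Il18r1 was at 9.53, 9.29 and 9.16 in T2F3 MPP and at 6.75, 6.98 and 6.52 in GMP, with no overlap. In WT it went from 6.75 ± 0.30 (SD, n = 4) to 5.66 ± 0.34 (SD, n = 5), and the steps differed by -1.48 ± 0.27 (adjusted p = 0.0102). Csf1r had the largest rise.

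Genes of the stem cell surface fell almost throughout. Of 20 genes in the table, 15 were tested, 13 were lower in T2F3 GMP and none higher, with a median step of -1.83. Kit and Sult1a1 were the members that did not pass. Procr, for the endothelial protein C receptor, was at 7.58, 6.34 and 6.64 in MPP and at 4.55, 4.47 and 4.34 in GMP (-2.40 ± 0.23, SE). Robo4, a guidance receptor gene of stem cells and endothelium, was at 7.20, 6.13 and 6.59 in MPP and at 4.02, 4.37 and 4.26 in GMP (-2.42 ± 0.21). In both genes all GMP libraries lay below all MPP libraries.

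Ctla2a, which encodes a cysteine protease inhibitor, had the largest fall of the list, from 10.78, 9.92 and 9.96 to 6.87, 7.54 and 6.51 (-3.25 ± 0.33, SE, adjusted p = 1.75e-06). It has a close copy in Ctla2b, so its value is uncertain. In WT all 15 tested members were lower, with a median of -1.60, and no member passed the test of the difference. In Robo4, Procr and Ctla2a, MPP 1 stood above MPP 2 and MPP 3, and its part in the spread was not tested.

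Of the transcription factor genes of stem cells, 25 of 30 in the table were tested, 17 were lower in T2F3 GMP and 1 was higher, with a median of -0.66. Mycn, a MYC family gene of early progenitors, was at 9.36, 9.15 and 9.24 in MPP and at 4.64, 4.78 and 5.02 in GMP. It fell 21.6-fold (-4.44 ± 0.17, SE, adjusted p = 7.09e-11), with each group in a narrow range. Hmga2, a chromatin protein gene of fetal and early progenitors, was at 9.28, 9.06 and 9.11 in MPP and at 6.40, 6.70 and 6.92 in GMP (-2.48 ± 0.17). Nkx2-3 fell 5.2-fold and Mecom, a gene needed for stem cell upkeep, 3.91-fold. Lyl1 was the member that rose (0.30 ± 0.09), and its call was lost without MPP 2, MPP 3 or GMP 1, with adjusted p values of 0.0665, 0.081 and 0.0914.

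The step of Mycn was larger in T2F3 than in WT, where it went from 7.26 ± 0.24 (SD, n = 4) to 5.15 ± 0.23 (SD, n = 5), with a difference of -2.33 ± 0.21 (SE, adjusted p = 2.3e-05). For Hmga2 the WT step was -1.47 and the difference -1.01 ± 0.22 (adjusted p = 0.0255), a call lost without T2F3 MPP 3 (0.0773), T2F3 GMP 1 (0.0502), WT MPP 1 (0.0501) or WT MPP 4 (0.0582). Of the members with a smaller fall in T2F3, Hlf, named after its value was seen, had steps of -1.58 in T2F3 and -2.69 in WT (difference 1.11 ± 0.23, adjusted p = 0.0204), a call lost without T2F3 MPP 2 (0.0552), T2F3 MPP 3 (0.0834) or WT MPP 1 (0.0503). In all, 3 members had a higher and 2 a lower step in T2F3.

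The deepest falls of the step were in genes that are not on a list. Ncam2, a neural cell adhesion molecule gene, was at 9.17, 7.96 and 7.88 in T2F3 MPP and at 2.71, 2.63 and 2.89 in T2F3 GMP, and fell 48.2-fold (-5.59 ± 0.24, SE, adjusted p = 2.33e-10). Slc17a8, which encodes a vesicular glutamate transporter, was at 9.86, 7.81 and 7.79 in MPP and at 3.21, 3.49 and 3.07 in GMP, and fell 37.5-fold (-5.23 ± 0.37). Gdf10, a growth factor gene of the TGF-beta superfamily, was at 9.06, 7.05 and 6.79 in MPP and at 2.95, 2.84 and 2.53 in GMP, and fell 29-fold (-4.86 ± 0.38). In all 3 genes MPP 1 was the highest library.

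In WT these 3 genes were low in both populations. The WT MPP and GMP means ± SD (n = 4 and n = 5) were 2.51 ± 0.12 and 2.50 ± 0.02 for Ncam2. They were, in the same order, 2.89 ± 0.21 and 2.73 ± 0.08 for Slc17a8, and 2.34 ± 0.07 and 2.42 ± 0.05 for Gdf10. The steps differed by -5.58 ± 0.31 for Ncam2 (adjusted p = 5.41e-08), by -5.07 ± 0.48 for Slc17a8 (2.75e-05) and by -4.94 ± 0.49 for Gdf10 (4.64e-05). The regularized log pulls low values together, so the folds of genes that are low in a group are understated.

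Sparc and Igf1 were likewise low in T2F3 GMP, with small WT steps. Sparc, a matrix protein gene, was at 5.77, 5.59 and 5.71 in T2F3 MPP and at 2.29, 2.29 and 2.69 in T2F3 GMP (-3.26 ± 0.14, SE), with a WT step of -0.21. Igf1, the insulin-like growth factor 1 gene, was at 7.67, 4.97 and 5.70 in MPP and at 2.68, 2.84 and 2.58 in GMP (-3.41 ± 0.45), with MPP 1 far above the others and a WT step of -0.25. Timp3, an inhibitor of matrix metalloproteinases, fell 7.93-fold in T2F3 with a WT step of -0.39. Enah, an actin regulator gene, moved in opposite directions: it fell 2.77-fold in T2F3, to a GMP mean of 7.96, and rose in WT from a mean of 5.68 to 6.43 (0.75, adjusted p = 0.000607).

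Early lymphoid genes fell. Of 18 genes in the table, 14 were tested, 7 were lower and 1 higher, with a median of -0.53. Dntt, the gene of terminal deoxynucleotidyl transferase of early lymphoid cells, was at 9.71, 10.48 and 10.31 in MPP and at 5.62, 5.93 and 5.89 in GMP, and fell 20.4-fold (-4.35 ± 0.17, SE, adjusted p = 7.09e-11). Its WT step was -4.18, and the difference did not pass (adjusted p = 0.675). Lax1, an adaptor of lymphocyte signalling, fell 4.51-fold (-2.17 ± 0.15), Tcf7, a T lineage factor, 2.04-fold and Blnk, a B cell adaptor, 1.76-fold.

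In WT 12 early lymphoid genes were lower and the median was -1.09. Satb1, a chromatin organizer of lymphoid progenitors named after its value was seen, had a step of 0.05 in T2F3 and -1.16 in WT (difference 1.21 ± 0.18, SE, adjusted p = 0.00274). Of the B lymphoid list, 5 of 15 genes in the table were tested and 2 were lower, Cd72 and Fcrla, with steps of -1.37 and -0.94, and without MPP 1 there were 3. Pax5 and Ebf1, factors that define B cells, were below the filter. Of the T and NK cell list, 3 of 18 were tested and Lck passed, while Cd3e, Cd3d and Cd3g were below the filter. Without MPP 1, GMP 3 or WT GMP 1 there were 2.

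Lck, a kinase gene of T cells that early progenitors also transcribe, was at 8.41, 8.71 and 8.73 in T2F3 MPP and at 5.77, 5.33 and 5.53 in GMP. It fell 8.4-fold (-3.07 ± 0.15, SE) against a WT step of -1.75, a difference of -1.32 ± 0.20 (adjusted p = 0.00274). Gimap3, a gene of the immunity-associated GTPases of lymphocytes, was at 8.65, 7.36 and 7.34 in MPP and at 4.40, 4.26 and 4.20 in GMP, and Gimap6 at 9.96, 9.44 and 9.51 and at 6.49, 6.64 and 6.41. They fell 11.3-fold and 8.72-fold. The family was then taken by symbol, after these values were seen: all 8 tested Gimap genes were lower, with steps from -3.50 to -1.53 and a median of -2.91 (WT median -1.73), and 3 of the 8 passed the test of the difference. These genes are close copies of each other, so reads may be shared among them.

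Myl10, which encodes a myosin light chain, completed the 12 largest falls, with 9.55, 9.62 and 9.58 in MPP and 6.44, 6.64 and 6.30 in GMP (-3.12 ± 0.58, SE, adjusted p = 0.000822).

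Erythroid and megakaryocyte genes moved little in T2F3. Of 22 erythroid genes in the table, 12 were tested and 3 were lower, Car2 (-1.84 ± 0.23, SE), Gfi1b (-1.69 ± 0.18) and Aqp1 (-0.86 ± 0.21), which encode a carbonic anhydrase, a repressor and a water channel. Hba-a2, Hbb-b1 and Hbb-bt were listed at 0, and the summed level of the list was 12.28 to 12.43 in MPP and 12.17 to 12.31 in GMP. In WT 9 members were lower and the median was -1.06, against -0.12 in T2F3 (0.01 without GMP 1 and -0.20 without GMP 2). The difference passed for 2 members, Ank1 and Ermap, red cell membrane genes named after their values were seen. That of Ermap was 1.46 ± 0.36 (SE, adjusted p = 0.0498), close to the threshold of 0.05. Whether the Ermap call held with single libraries left out is not reported here. Ank1 was at 4.93, 5.10 and 4.99 in T2F3 MPP against a WT MPP mean of 7.54, and its steps were -0.10 in T2F3 and -1.29 in WT (difference 1.20 ± 0.23, adjusted p = 0.0144).

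Of 16 megakaryocyte genes in the table, 12 were tested and 6 were lower, with a median of -0.31 (-0.48 without MPP 2). Rab27b, a secretory granule GTPase gene, was at 5.72, 5.67 and 5.49 in MPP and at 3.88, 4.19 and 4.05 in GMP (-1.59 ± 0.17, SE), and Plek, the pleckstrin gene, fell 1.91-fold. The count was 4 without MPP 1, MPP 2 or GMP 2 (1 of these higher) and 3 without MPP 3 or GMP 1. Gp6 was listed at 0.

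Markers of endothelium and stroma were split. Of 12 genes in the table, 5 were tested, 2 were higher and 2 lower, while Cdh5, Kdr, Cxcl12 and Col1a1 were below the filter. Vcam1, an adhesion molecule gene that myeloid progenitors also use, rose 4.4-fold (2.14 ± 0.24, SE) and Emcn, the endomucin gene of endothelium and stem cells, fell 3.77-fold (-1.92 ± 0.16). The count was 2 without MPP 1 or GMP 1.

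Cell cycle genes rose by small amounts. All 30 genes of the list were tested, 14 were higher in T2F3 GMP and none lower, with a median of 0.34. Rrm2, a subunit of ribonucleotide reductase, was at 10.17, 10.73 and 10.71 in MPP and at 11.27, 11.35 and 11.15 in GMP (0.72 ± 0.13, SE, adjusted p = 0.000477). Cdc45, a replication factor gene, was at 8.95, 9.25 and 9.21 in MPP and at 9.81, 9.79 and 9.75 in GMP (0.65 ± 0.10). MPP 1 was lowest in both, and the count of 14 fell to 4 without MPP 1, to 5 without GMP 1 and to 8 without GMP 3. Plk1, a mitotic kinase gene, rose 1.54-fold. In WT 18 members were higher with a median of 0.35, and no member passed the test of the difference.

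Of cell cycle inhibitor and cyclin D genes, 12 of 13 in the table were tested, 1 was higher and 2 were lower. Over all genes tested 10.6% were higher and 11.9% lower, so these counts do not set the list apart. Cdkn2d, the p19 inhibitor, rose (0.71 ± 0.18, SE), and Cdkn1a, the p21 inhibitor, fell (-0.58 ± 0.15). The count of 3 was 2 without T2F3 MPP 3, T2F3 GMP 1, WT MPP 4, WT MPP 5 or WT GMP 4, 5 without T2F3 MPP 1 and 6 without WT GMP 1. Kinesin genes, taken by symbol after their values were seen, were higher in 12 of 28 and lower in 3, with a median of 0.27. In WT 3 were higher and 9 lower, with a median of 0.01, and none passed the test of the difference.

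Metabolic and protein synthesis genes differed by pathway. Of 46 tested genes of cytosolic ribosomal proteins, 37 of oxidative phosphorylation and 23 of ribosome biogenesis, none passed in limma in either direction, with medians of 0.02, 0.14 and -0.12. At an unadjusted p under 0.05 there were 0, 0 and 3, the last all lower. In WT 13, 32 and 4 of these were higher. Single GMP libraries stood apart in these genes: the median ribosomal protein gene lay 0.55 above the mean of the 6 libraries in GMP 2 and at -0.41 in GMP 3, while the MPP libraries lay between -0.02 and 0.00. Without WT GMP 1 and T2F3 GMP 2, libraries left out after their values were seen, 9 ribosomal protein genes and 3 ribosome biogenesis genes were lower and 2 oxidative phosphorylation genes were higher. Single libraries mattered too, since 1 oxidative phosphorylation gene was higher without T2F3 GMP 3 or WT GMP 1 and 1 ribosome biogenesis gene was lower without WT GMP 1.

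Of 21 tested genes of glycolysis and the pentose phosphate path (22 in the table), 7 were higher and 3 lower, with a median of 0.28. Pgd and G6pdx, the NADPH-forming enzymes of the pentose phosphate path, rose 2.13-fold and 2-fold. Pgd was at 10.44, 10.60 and 10.70 in MPP and at 11.95, 11.34 and 11.71 in GMP (1.09 ± 0.16, SE, adjusted p = 0.000109), with no overlap. Hk3, a hexokinase gene of myeloid cells, rose 2.07-fold and Aldoc, an aldolase gene, fell 2.33-fold. The WT steps of Pgd, G6pdx and Hk3 were 1.38, 1.00 and 1.08.

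Of 24 tested genes of protein processing in the endoplasmic reticulum, 6 were higher and none lower, with a median of 0.38 against 0.90 in WT, where 22 were higher. P4hb, a protein disulfide isomerase gene, was at 13.15, 13.38 and 13.48 in MPP and at 14.27, 13.85 and 13.90 in GMP (0.67 ± 0.14, SE, adjusted p = 0.00176). Sdf2l1, a chaperone partner gene, rose 1.58-fold. The difference from WT passed for 3 members, all with the smaller step in T2F3. The count of 6 was 3 without T2F3 MPP 1 or T2F3 GMP 1, 4 without T2F3 MPP 2 or T2F3 GMP 3, and 11 without T2F3 GMP 2 or WT GMP 1.

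Cholesterol synthesis genes fell in part. All 22 were tested, 7 were lower and none higher, with a median of -0.26. Cyp51, Sqle and Lss, enzymes that act on squalene and lanosterol, had steps of -0.67 ± 0.15, -0.66 ± 0.15 and -0.64 ± 0.14 (SE), with no overlap between the groups. Sqle was at 9.12, 9.22 and 9.35 in MPP and at 8.38, 8.47 and 8.87 in GMP. In WT 7 members were higher and 1 lower, with a median of 0.15. The difference passed for 2 members. Of these Mvd, an enzyme gene of the mevalonate path named after its value was seen, had steps of -0.13 in T2F3 and 0.87 in WT (adjusted p of the difference 0.0107). The count of 7 was 4 without T2F3 MPP 3 or T2F3 GMP 1.

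**Figure D3:**
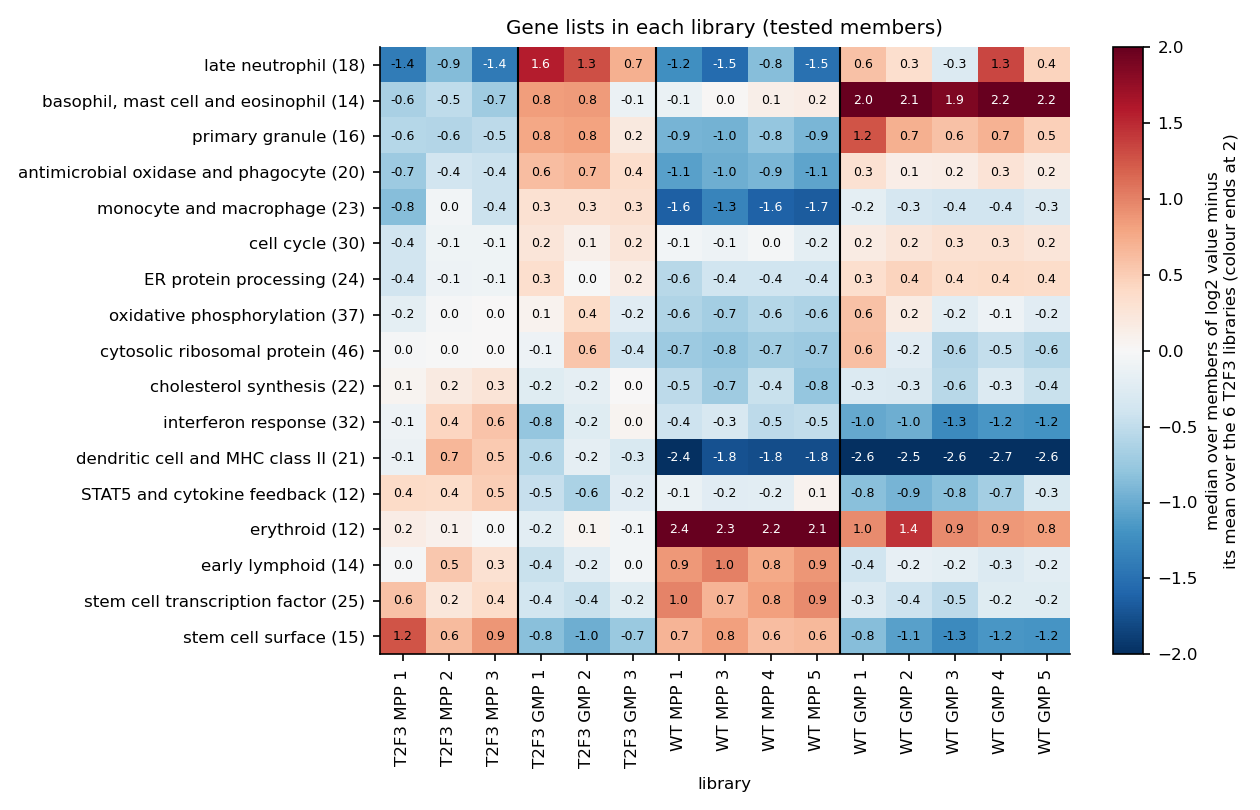
Median over the tested members of each gene list (rows, members in brackets) of the log2 value minus its mean over the 6 T2F3 libraries, for each library (columns). The late neutrophil median was between -1.42 and -0.87 in T2F3 MPP and between 0.71 and 1.57 in T2F3 GMP, and the ribosomal protein median set T2F3 GMP 2 (0.55) and WT GMP 1 (0.60) apart from the other GMP libraries.

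Interferon response genes fell. All 32 were tested, 16 were lower in T2F3 GMP and none higher, with a median of -0.59. Iigp1, an immunity-related GTPase gene, was at 7.16, 7.47 and 7.76 in MPP and at 4.85, 5.53 and 5.62 in GMP, and fell 4.37-fold (-2.13 ± 0.25, SE, adjusted p = 7.68e-06). Rtp4 was at 6.60, 7.02 and 7.28 in MPP and at 4.75, 5.65 and 5.61 in GMP, and fell 3.09-fold. Ifi44 and Oasl2 fell 2.51-fold and 2.41-fold. GMP 1 had the lowest median of this list (-0.77) and MPP 1 the lowest of the MPP libraries (-0.10).

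In WT 21 interferon response genes were lower with a median of -0.70. The count of 16 in T2F3 was 10 without MPP 3 or GMP 1. Oas2 and Igtp, named after their values were seen, passed the test of the difference. Oas2 had the larger fall in WT (difference 1.31 ± 0.26, SE, adjusted p = 0.0175), a call lost without T2F3 GMP 3 (0.0561). Igtp had the larger fall in T2F3, with steps of -1.01 and -0.46, a call lost without T2F3 MPP 2, T2F3 MPP 3 (0.118), T2F3 GMP 2, WT MPP 1, WT MPP 4, WT MPP 5, WT GMP 2, WT GMP 3 or WT GMP 5.

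STAT5 targets and cytokine feedback genes were lower in T2F3 GMP in 8 of 12 and higher in 1, with a median of -0.80. Socs2, a feedback inhibitor of cytokine receptors, was at 10.21, 10.21 and 10.30 in MPP and at 7.86, 8.21 and 8.74 in GMP, and fell 3.92-fold (-1.97 ± 0.19, SE, adjusted p = 1.34e-06). Pim2, a survival kinase gene, was at 9.46, 8.76 and 9.19 in MPP and at 7.10, 6.97 and 7.15 in GMP, and fell 4.18-fold (-2.06 ± 0.18). Cish fell 2.83-fold and Socs3 3.57-fold, feedback inhibitors of the same family as Socs2.

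The WT level of Socs2 was 5.43 ± 0.24 in MPP (SD, n = 4) and 4.91 ± 0.21 in GMP (SD, n = 5), so the gene was above every WT library even in T2F3 GMP. Its steps differed by -1.45 ± 0.25 (SE, adjusted p = 0.00664). Id1, an inhibitor of helix-loop-helix factors, was the member that rose, by 0.61 ± 0.16 in T2F3 and 1.72 in WT (difference -1.11 ± 0.20, adjusted p = 0.00939). For Pim2 and Cish the differences did not pass, with adjusted p values of 0.0788 and 0.485.

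NF-kB and inflammatory genes were lower in 7 of 17 tested and higher in 1, with a median of -0.25. Ccl4, a chemokine gene, was at 5.35, 4.71 and 4.80 in MPP and at 3.74, 3.78 and 3.49 in GMP (-1.29 ± 0.18, SE). Cd83 fell 1.99-fold and Traf1, a signalling adaptor gene, 1.82-fold, while Tnfaip2 rose 1.74-fold. Of 9 tested MAPK feedback genes 3 were lower and 1 higher. Dusp5, a phosphatase that acts on ERK, was at 7.40, 7.26 and 7.39 in MPP and at 5.50, 5.88 and 6.24 in GMP (-1.48 ± 0.17). Spred1 fell 1.6-fold and Spry2 rose 1.58-fold.

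MHC class I genes had 1 of 11 members higher and 1 lower, near the 10.6% and 11.9% of all genes tested. The calls numbered 0 without T2F3 GMP 1, 3 without T2F3 GMP 2 and 4 without WT GMP 1. They numbered 1 without T2F3 MPP 1, T2F3 MPP 2, T2F3 GMP 3, any WT MPP library, WT GMP 2 or WT GMP 4. Of 7 tested TET and DNMT enzyme genes, Tet2 was higher and Dnmt3b and Tet1 were lower. Dnmt3b, a DNA methyltransferase gene, was at 9.90, 9.42 and 9.52 in MPP and at 8.41, 8.08 and 8.60 in GMP, and fell 2.38-fold (-1.25 ± 0.16, SE, adjusted p = 2.24e-05). Tet1 fell 1.6-fold (-0.68 ± 0.15). Their WT steps were -0.94 and -1.07.

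The genes with a step that differed from WT took several forms. Of the 138 with a higher step in T2F3, 72 were lower in WT GMP with no call in T2F3, and 45 were lower in both. A further 9 were higher in T2F3 and lower in WT, 9 were higher in T2F3 with no call in WT and 3 were higher in both. Of the 104 with a lower step in T2F3, 40 were higher in WT with no call in T2F3, 25 were lower in T2F3 with no call in WT and 22 were lower in both. In 11 the gene was lower in T2F3 and higher in WT, and 6 were higher in both.

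The largest higher steps were in genes that fell in WT. Sdc1, the syndecan 1 gene, was at 4.94, 5.77 and 5.38 in T2F3 MPP and at 5.95, 5.80 and 6.42 in T2F3 GMP, and fell in WT from 6.85 ± 0.09 (SD, n = 4) to 5.50 ± 0.28 (SD, n = 5). The steps differed by 2.04 ± 0.27 (SE, adjusted p = 0.000896), while the T2F3 step itself (0.69, adjusted p = 0.0259) did not pass without MPP 1 (0.141), MPP 3 (0.0638) or GMP 3 (0.126). Vldlr, a lipoprotein receptor gene, fell 4.07-fold in T2F3, from 6.86, 6.70 and 6.70 to 4.70, 4.64 and 4.85, and had a WT step of -3.79. Hnf4a, a nuclear receptor gene, had steps of -1.01 and -2.67.

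Add2 and Slc16a11, for a red cell membrane skeleton protein and a carboxylate transporter, had no call in T2F3 (steps of 0.10 and -0.01) and fell in WT by steps of -1.53 and -1.93. Nxpe2 rose in T2F3 (1.06 ± 0.17, SE), and its WT step was -0.52. In T2F3 MPP these 3 genes were already low, at 4.17, 4.15 and 3.91 for Add2, 4.53, 4.12 and 4.35 for Slc16a11 and 4.80, 4.86 and 4.61 for Nxpe2, while their WT MPP means were 6.88, 6.27 and 6.16.

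The count of 242 moved with single libraries. It was 569 without T2F3 MPP 1, 135 without T2F3 MPP 2, 78 without T2F3 MPP 3 and 106 without T2F3 GMP 3, and 116, 114, 120 and 160 without WT MPP 1, WT MPP 3, WT MPP 4 and WT GMP 2. With each library centred on its median, 281 genes passed, of which 200 had a higher and 81 a lower step in T2F3.

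**Figure D4:**
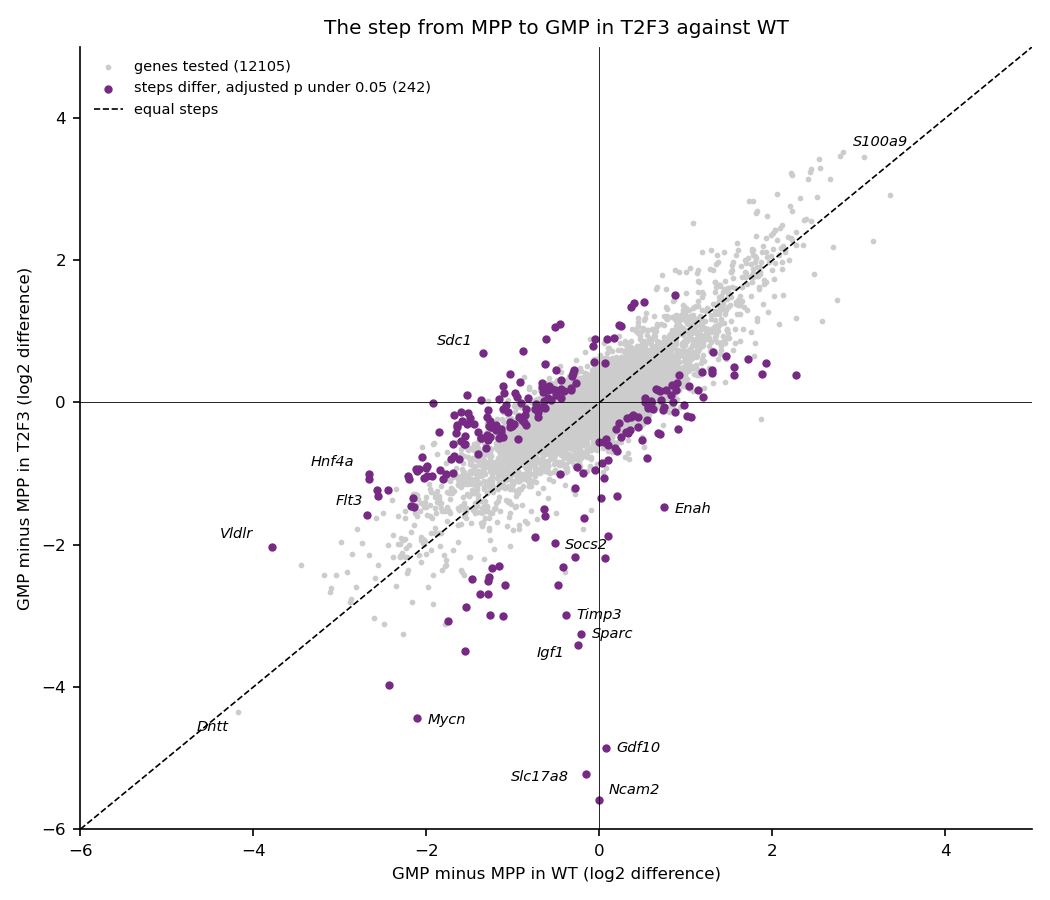
GMP minus MPP in T2F3 (vertical axis) against GMP minus MPP in WT (horizontal axis), both as log2 differences, for the 12105 genes tested (grey), with the 242 genes whose steps differed (purple) and the line of equal steps (dashed). Ncam2, Slc17a8 and Gdf10 fell by 4.86 or more on the log2 scale in T2F3 and stayed within 0.16 of 0 in WT, and Dntt lay near the line.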

How the data were processed

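Sorted MPP and GMP from T2F3 and WT bone marrow were profiled by stranded mRNA sequencing, and the deposited table holds log2 values of 24424 genes by Entrez identifier, 24345 of which were matched to symbols. Per the submitters' processing notes, the build mm9 and the tools DESeq2, HOMER, Bowtie and STAR were used, with no roles given. The values are regularized log2 expression as the authors made it, per the file name and the value range (-3.82 to 19.64). No counts were used here, so the depth is unknown and no counting interval is given.

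Groups came from the labels. Genes averaging 4 or more in the 6 T2F3 libraries were tested with limma 3.58.1 in R 4.3.3 (linear model of the 4 group means over all 15 RNA libraries, trended and robust empirical Bayes, 11 residual degrees of freedom). Contrasts were GMP minus MPP in T2F3, in WT, and their difference. Tests were 2-sided, with Benjamini-Hochberg adjustment over all 12105 genes and a threshold of 0.05. The script was tested on simulated data. Tables and figures were made with Matplotlib 3.10.9, NumPy 2.4.6 and pandas 2.3.3 in Python 3.11.15.

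The text names the targeted and gate genes, the 12 largest rises and falls, up to 4 called genes for each of 31 lists and up to 8 differences from WT in each direction. Members and lists were chosen with earlier results of these data known. Unmatched list entries numbered 3. Alternatives covered the filter, pseudocount, centring, quantile normalization, weights, testing for steps above 0.5 in log2, the T2F3 libraries alone, a replicate block and each library left out. The numbers of the libraries were not treated as pairs in the tests, since the labels tie them to no animal and the correlations of same-numbered T2F3 deviations were 0.09, 0.21 and 0.30. Y-linked genes were nevertheless read in the same numbers of both populations, so shared animals were not excluded, and a fit with the number as a block is given as an alternative. The other 41 samples, of 5-hydroxymethylcytosine and input DNA, are not analysed here. Some genes of the lists are counted but not reported here by name.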

Additional observations from a re-analysis of the deposited data

Results flagged for a closer look

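The GMP minus MPP step differed between T2F3 and WT in 242 genes by the interaction contrast in limma. Among named genes the step was higher in T2F3 for Sdc1 (by 2.04 on the log2 scale), Slc16a11 (1.91), Vldlr (1.76), Hnf4a (1.65), Add2 (1.62), Ces2g (1.61), Gprc5b (1.59), Nxpe2 (1.58), Flt3 (1.34) and Pecam1 (0.72). It was lower for Ncam2 (-5.58), Slc17a8 (-5.07), Gdf10 (-4.94), Igf1 (-3.16), Sparc (-3.05), Timp3 (-2.59), Mycn (-2.33) and Enah (-2.22). It was lower by less for Gimap3 (-1.95), Il18r1 (-1.48), Socs2 (-1.45), Lck (-1.32), Id1 (-1.11), Hmga2 (-1.01), Rab27b (-0.95) and Sdf2l1 (-0.79).

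The differences of Pecam1, Hmga2, Rab27b and Sdf2l1 lost their call when at least 1 library was left out. In 32 groups of WT libraries, a library stood apart from its group in Slc17a8, at 2.87 in WT GMP 1, and in Gdf10, at 2.51 in WT GMP 3. Chance alone marks about 1 in 20 such groups, and both values are near the low end of the scale.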

How the results depend on the processing

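The count of 2719 genes in the T2F3 step was 4407 with array weights and 672 when tested against a log2 difference of 0.5. It lay between 2094 and 3198 as single libraries were left out and was 2063 in the T2F3 libraries alone. Without WT GMP 1 and T2F3 GMP 2, left out after the data were seen, it was 3869. The 242 differences from WT became 436 with no filter, 151 with a minimum mean of 6, 1468 with array weights, 18 against a log2 difference of 0.5 and 1181 without those 2 libraries, of which 31.6% were higher in T2F3 against 57.0% of the 242. The shares with array weights, against 0.5 and with centring were 46.4%, 38.9% and 71.2%. With single libraries left out the differences numbered 78 to 569. For these counts the cause was not tested.

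With the replicate number as a block, 2736 genes passed in the step and 174 differences did, and each T2F3 MPP library correlated best with the GMP library of its own number, a hint from the data and not the design, as are the Y-linked genes read in the same numbers of both populations. The block in the T2F3 libraries alone gave 2692, and with all libraries 24 interferon response genes and 4 of protein processing in the endoplasmic reticulum passed.

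Of 129 named calls, 109 held with every single library left out and 81 under the other alternatives, with 48 lost against a log2 difference of 0.5 and 10 with quantile normalization, under which 8 cell cycle genes and 1 endoplasmic reticulum gene passed. Small steps changed sign. Kit was 0.04 with array weights and 0.07 without WT GMP 1 and T2F3 GMP 2, and ranged from -0.18 to 0.07 with single libraries left out. Slc16a11 and Ank1 were 0.25 and 0.13 with quantile normalization and ranged from -0.20 to 0.15 and from -0.15 to 0.02. Satb1 was -0.14 with array weights and ranged from -0.13 to 0.18, and Oas2 ranged from -0.54 to 0.001. The regularized log limits folds of low genes.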
